A study of Drosophila melanogaster with 4 samples.

Results

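The subject is the set of binding regions of Pangolin, the Drosophila melanogaster TCF protein, on chromosome arm 3L, the left arm of the third chromosome. These are the peaks of the deposited list whose sequence name is exactly 3L, whatever their score. There are 310 of them, 22.9% of the 1355 peaks listed on 11 sequences. Positions are given in FlyBase release 5. The peaks come from chromatin immunoprecipitation followed by sequencing (ChIP-seq), which recovers DNA fragments cross-linked to a protein, with 2 TCF ChIP libraries set against 2 libraries of input DNA, chromatin that was not immunoprecipitated. All 4 libraries were made from whole embryos aged 16 to 24 h of the y; cn bw sp strain, so all groups share its alleles. On the first chromosome these are y[1] and oc[R3.2]. On the second they are cn[1], bw[1] and sp[1], the eye colour and speck markers, with Gr22b[1] and Gr22d[1] in taste receptor genes, and CG33964[R4.2]. On the third they are lab[R4.2], in the Hox gene labial, Rh6[1], in a rhodopsin gene, and LysC[1], MstProx[1] and GstD5[1]. The antibody was a crude rabbit polyclonal serum against the N-terminal part of Pangolin, and a whole embryo mixes all tissues, so a peak cannot be assigned to a cell type.

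Pangolin is the DNA-binding factor at the end of the Wnt pathway. When the Wnt ligand Wingless binds its receptors, Armadillo, the fly beta-catenin, accumulates, enters the nucleus and joins Pangolin to activate target genes; without the signal, Pangolin acts with the corepressor Groucho and keeps the same genes low. It binds DNA through an HMG domain and a second domain, the C-clamp, which reads a separate helper sequence. In the embryo the pathway is known for segment patterning and for its roles in the midgut, the heart and the nervous system.

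The list gives each peak a start, an end and a score set by the authors. The sources used here do not give the scale of this score, so it serves here to rank and describe peaks within the list, with no reading as enrichment or probability. No column names a library, so no peak has a replicate error. For the same reason the 2 ChIP libraries cannot be compared with each other or, peak by peak, with the input DNA. The depth of the libraries was not examined here. All intervals and p-values below cover the counting of peaks, which are not independent replicates of the experiment. The tests treat peaks as independent although many lay close together, so the intervals may be too narrow and the p-values too small. Genes at the peaks are not named, since no annotation of release 5 was used here.

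Most peaks on 3L were weak by this score, and a short tail reached far above the rest. Scores ran from 5.76 to 367, with a median of 13.5 and an interquartile range of 10.0 to 23.4. A score of 20 or more was reached by 94 peaks (30.3%), 50 or more by 34 peaks (11.0%), 100 or more by 16 and 200 or more by 8. The score of 5.76, for the peak from 341882 to 342088, was also the lowest of the whole list. The next lowest on the arm were 6.73, from 14748937 to 14749169, and 3 peaks at 7.24. None of these 5 peaks was wider than 233 bp.

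**Figure D1:**
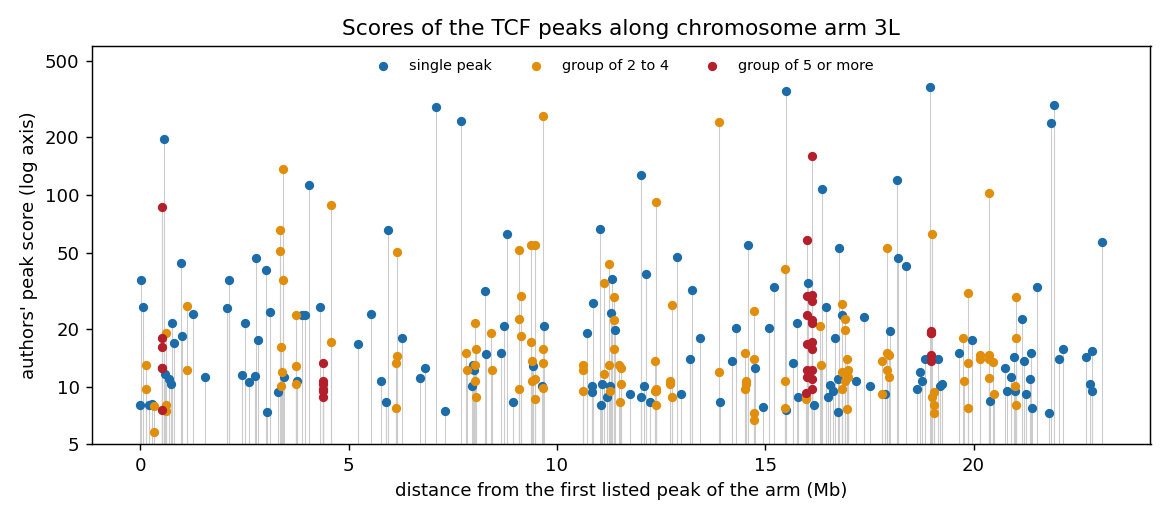
Each point is 1 of the 310 peaks on 3L, at its distance in Mb from the first listed peak of the arm, with the authors' score on a log axis; colours give the size of the group the peak belongs to when peaks are joined at gaps of up to 10 kb. Scores from 5.76 to 30 line the whole arm, while the 8 peaks over 200 stand at scattered places, 6 of them as single peaks.

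The 8 strongest peaks scored between 237 and 367, and the ninth scored 196. The strongest, from 18988437 to 18989805, scored 367 over 1369 bp and had rank 5 in the whole list. The second, from 15527694 to 15528595, scored 349 over 902 bp. The third, from 21946960 to 21948192, scored 295 over 1233 bp and lay 74.3 kb, measured between midpoints, from the eighth, which ran from 21872737 to 21873815 with a score of 237.

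The fourth and the sixth stood far from any other peak. The fourth, from 7126910 to 7127697 with a score of 287, had its nearest neighbour 215 kb away, and the sixth, from 7711292 to 7712049 with a score of 242, had its nearest 142 kb away. Over all peaks of the arm the median distance to the nearest midpoint was 8.14 kb (interquartile range 1.17 to 37.8 kb). The fifth and the seventh, in contrast, had weak companions at close range. The fifth, from 9685909 to 9686724 with a score of 258, lay 0.978 kb from a peak that scored 13.2, in a group of 4 whose other scores were 9.78 and 15.7. The seventh, from 13913033 to 13913746 with a score of 239, lay 0.851 kb from its single companion.

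Ranks 9 to 15 completed the upper end of the arm. The ninth spanned 603913 to 604538 and scored 196, the tenth spanned 16142489 to 16143581 (score 160) and the next 3460442 to 3461165 (score 137). Rank 12 spanned 12049708 to 12050856 (score 128), and rank 13 spanned 18178640 to 18179418 (score 119). Rank 14, at 4070041 to 4071480, scored 113, and rank 15, at 16386927 to 16387769, scored 107. The peak just outside these 15 scored 103. Of the 15, 11 were single peaks with nothing listed within 10 kb of either end, and 4 belonged to groups. Their widths lay between 626 and 1440 bp, with a median of 843 bp.

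The score distribution on 3L followed that on 2L and 3R closely at the low end and lay under that of 2L and X among stronger peaks. The median score was 13.5 on 3L, against 14.0 on 2L, 13.6 on 3R and 19.8 on X. Peaks in the top 25% of the whole list, at a score of 26.7 or more, made up 20.0% of the 3L peaks (62 peaks, exact 95% interval 15.7 to 24.9%), 28.7% of those on 2L (86 peaks, 23.6 to 34.1%) and 22.6% of those on 3R (74 peaks, 18.2 to 27.6%). On X it was 36.0% (50 peaks, 28.0 to 44.5%), and on the other 5 main arms together 25.7% (23.0 to 28.5%). The interval for 3L overlaps those of 2L, 3R and the 5 arms and lies under that of X. The shares were not tested against each other.

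**Figure D2:**
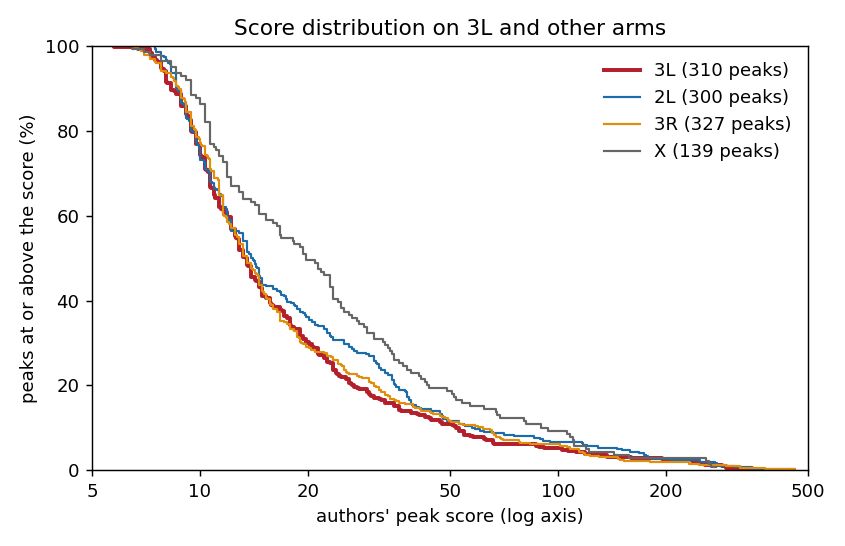
Percent of an arm's peaks at or above each score (log axis) for 3L, 2L, 3R and X. The 3L curve runs with that of 3R over most of the range, under that of 2L between scores of about 15 and 40, and under that of X up to about 200.

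Counted over length, the arm had a density close to that of 2L and a higher one than the other 5 main arms summed. From the first listed peak, which begins at 24268, to the last, which ends at 23117848, 3L carried 13.4 peaks per Mb (exact Poisson 95% interval 12.0 to 15.0). The densities were 13.5 on 2L (12.1 to 15.2), 11.8 on 3R (10.6 to 13.2) and 10.9 on the other 5 arms together (10.3 to 11.6). The ratio of 3L to 2L was 0.991 (0.843 to 1.17, exact binomial test, two-sided, adjusted p = 0.94 over the 3 ratios) and that of 3L to 3R was 1.13 (0.967 to 1.33, exact binomial test, adjusted p = 0.18). Neither difference was detectable, and the intervals do not show equal densities either.

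The ratio of 3L to the other 5 arms was 1.23 (1.08 to 1.40, exact binomial test, adjusted p = 0.0058). X, at 6.42 peaks per Mb, is among those 5, and against 2L, 2R and 3R alone the ratio was 1.08 (0.948 to 1.23, exact binomial test, p = 0.24). Against the 5 arms, with each group of neighbouring peaks as a single count, it was 1.17 and no longer called (exact binomial test, adjusted p = 0.13).

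Split into 3 score classes, the excess over the 5 arms was called in the lowest. Below a score of 14.25, the list's median, 3L carried 7.32 peaks per Mb and the other 5 arms 5.42, a ratio of 1.35 (1.13 to 1.61, exact binomial test, adjusted p = 0.0090 over 9 ratios). Between the list's median and its upper quartile the densities were 3.42 on 3L and 2.70 on the other 5 arms, a ratio of 1.27 (0.970 to 1.64, exact binomial test, adjusted p = 0.22). In the top 25% they were 2.68 on 3L and 2.81 on the other 5 arms, a ratio of 0.955 (0.712 to 1.26, exact binomial test, adjusted p = 0.88). Against 2L the ratio was 1.07 under the list's median and 0.691 in the top 25% (0.490 to 0.969, exact binomial test, adjusted p = 0.12). Against 3R it was 1.17 under the list's median (0.939 to 1.45, exact binomial test, adjusted p = 0.36) and 1.00 in the top 25%. X is among the 5 arms, and 51 of its 139 peaks (36.7%) scored under the list's median. Of the large arms X had the fewest such peaks, 51 over an extent of 21.7 Mb. Under the list's median 2L held 152 peaks over 22.1 Mb, 2R 122 over 20.4 Mb and 3R 173 over 27.6 Mb. Chromosome 4 held 5 over 1.02 Mb, and 3L held 169 over 23.1 Mb. The ratio against 2L, 2R and 3R alone was not computed by score class. Whether the ratio differs between the score classes was not tested. Each listed peak counted singly in these classes, also within groups.

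Width followed score up to a point. The median width on 3L was 361.5 bp (interquartile range 250 to 597 bp), against 378 bp on 2L, 364 bp on 3R and 382 bp on the other 5 arms. With the 3L peaks split by score into 4 classes of 77 or 78 peaks, the median width was 240 bp in the lowest class, 275 bp and 405 bp in the next ones and 784 bp in the highest. Across the 310 peaks Spearman's rho of score and width was 0.76 and Pearson's r 0.48. Over all peaks of the other large arms rho was 0.77 on 2L, 0.78 on 2R, 0.77 on 3R and 0.80 on X. Pearson's r was 0.56 on 2L, 0.61 on 2R, 0.56 on 3R and 0.57 on X. Both measures come from the same list and the same peak caller. Within the 62 peaks of the top 25% the relation was slight, with a rho of 0.19, against 0.29 on 2L, 0.38 on 2R, 0.49 on 3R and 0.41 on X for the same class.

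The widest regions of the arm were not its strongest. The widest, from 16019796 to 16022490, measured 2695 bp and scored 58.1, rank 25 on the arm. The next, from 11053512 to 11055660, measured 2149 bp and scored 66.5, and the third, from 16041596 to 16043679, measured 2084 bp and scored 34.9. Of the 21 peaks of 1 kb or wider, 7 reached a score of 100, against 16 of all 310 (5.16%). The 16 peaks with a score of 100 or more were all at least 626 bp wide. At the other end, 12 peaks had a width of 201 bp, the smallest in the list, and scored between 7.44 and 11.3. Together the peaks of the arm covered 150 kb, 0.649% of its extent.

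**Figure D3:**
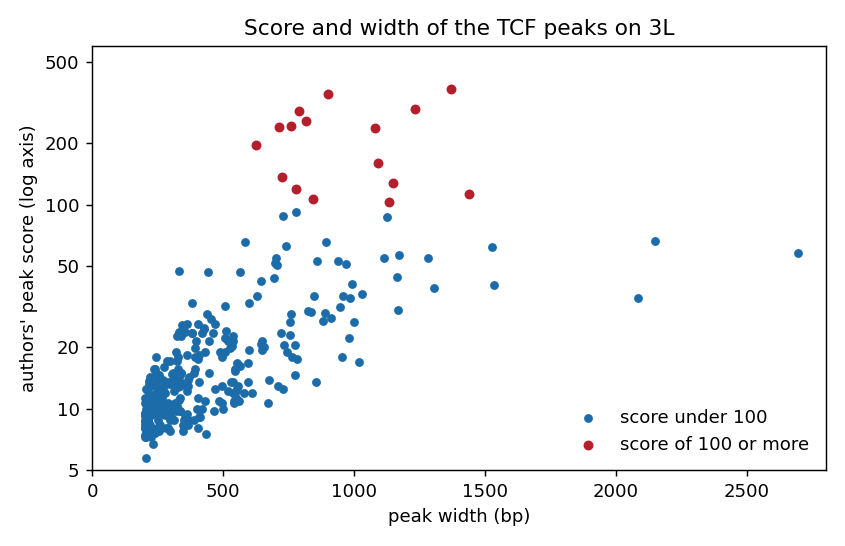
Width in bp and score (log axis) of each of the 310 peaks on 3L, with the 16 peaks of 100 or more in red. Score rises with width among narrow peaks, and the 3 widest peaks lie between 34.9 and 66.5, under all of the red points.

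Along the arm the peaks were unevenly spread. In the 23 full windows of 1 Mb, counted from the first peak, the number of peaks ran from 5 to 34, with a median of 13. The fullest window, from 16024268 to 17024267, held 34 peaks. The next was the first window of the arm, from 24268 to 1024267 at the telomere side, with 25. The window beside it, from 1024268 to 2024267, held 5, as did that from 5024268 to 6024267. On the other large arms the fullest such window held 26 peaks on 2L, 23 on 2R, 23 on 3R and 14 on X. Since the windows start at each arm's first peak, these counts depend on where the borders fall.

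**Figure D4:**
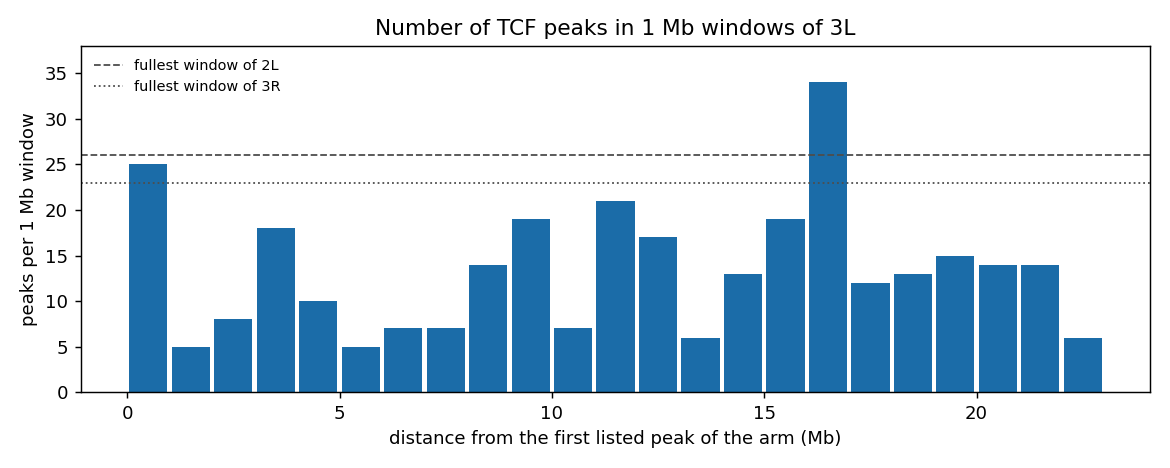
Peaks in each of the 23 full 1 Mb windows of 3L, counted from the first listed peak; lines mark the fullest window of 2L (26 peaks) and of 3R (23 peaks). The window with 34 peaks is the only one on 3L above both lines.

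The number of peaks in a window and their scores did not go together in any simple way. The median score was lowest, at 10.1, in the window from 12024268 to 13024267, which held 17 peaks, and highest, at 19.8, in that from 3024268 to 4024267, which held 18. The fullest window had a median score of 14.8. In 19 of the 23 windows at least 1 peak reached a score of 50. The 4 windows with none held 26 peaks together, and the last of them, from 22024268 to 23024267 at the centromere side, held 6 peaks with a highest score of 15.7. The last peak of the arm followed it, from 23116677 to 23117848, with a score of 56.9 over 1172 bp.

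The extent from the first to the last listed peak was divided at its middle, 11571058. It held 165 peaks on the centromere side and 145 on the telomere side. The ratio was 1.14 (0.905 to 1.43, exact binomial test, two-sided, p = 0.28), so a difference was not detectable. The median scores were 13.6 on the centromere side and 13.2 on the telomere side, and the median widths were 370 bp on the centromere side and 343 bp on the telomere side. Of the 16 peaks with a score of 100 or more, 10 lay on the centromere side and 6 on the telomere side.

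Peaks on 3L often lay close together. Of the 310, 162 (52.3%, exact 95% interval 46.5 to 57.9%) had another midpoint within 10 kb, against 51.3% on 2L, 50.2% on 3R, 38.1% on X (30.0 to 46.7%) and 49.4% on the other 5 arms. The values of 2L, 3R and the 5 arms lie within the interval of 3L, and that of X lies under it; these shares were not tested. When peaks with gaps of up to 10 kb were joined, the arm had 203 groups, of which 145 were single peaks, 33 pairs, 15 groups of 3 and 5 groups of 4. Only 5 groups held 5 or more peaks, with 34 peaks in all. Such groups numbered 3 on 2L, 4 on 2R, 7 on 3R and 1 on X. The largest group held 10 peaks on 3L, against 8 on 2L, 10 on 2R, 9 on 3R and 7 on X. The gaps between successive peaks had a median of 29.4 kb, and 49 of the 309 gaps were shorter than 1 kb. When peaks under 1 kb apart were merged, 261 peaks remained and 1 group of 5 or more was left, so the other large groups rest on peaks listed at very short distances, and whether such peaks are separate sites cannot be told from the list.

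The largest group filled 16.9 kb from 16142489 to 16159388 with 10 peaks. Its strongest member stood at its telomere-side end, from 16142489 to 16143581, with a score of 160. The 9 others scored between 9.74 and 30.1. The highest of these was the last peak of the group, from 16158565 to 16159388, and the second member, from 16143743 to 16144654, scored 27.9 at a gap of 161 bp from the first. Those 3 peaks belonged to the top 25% of the list, and the next highest scored 22.2 and 21.4.

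A group of 7 lay on its telomere side, from 16014386 to 16022490. Its peaks grew in score toward the centromere side, though not at every step: 9.21, 11.3, 12.2, 29.6, 23.5, 16.8 and 58.1. The last member is the widest peak of the arm, and the gaps between the last 6 members were between 46 and 265 bp. Peaks covered 65.4% of this group's span, against 35.5% in the group of 10. The wide single peak with a score of 34.9 followed after a gap of 19105 bp. Together these groups, the pair from 15994664 to 15997128 and the pair and single peaks up to 16487920 made the densest 500 kb of the arm, with 25 peaks, 8.06% of all on 3L, and a median score of 17.1. The peak ranked 15, with a score of 107, stands in the same stretch.

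The 2 groups of 6 were unlike each other. The one from 543781 to 553468 had a peak of 1125 bp with a score of 86.9, and 5 others that scored between 7.51 and 18.0. The one from 4405374 to 4414966 consisted of weak peaks alone, with scores from 8.86 to 13.2 and widths from 201 to 337 bp. The group of 5, from 19007720 to 19013126, was even: its scores were 19.4, 19.0, 19.0, 14.6 and 13.6. It followed the strongest peak of the arm after a gap of 17914 bp. The 100 kb that start with that peak held 11 listed peaks, of which 9 scored under 20 and the second strongest scored 62.2, from 19038509 to 19040033.

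**Figure D5:**
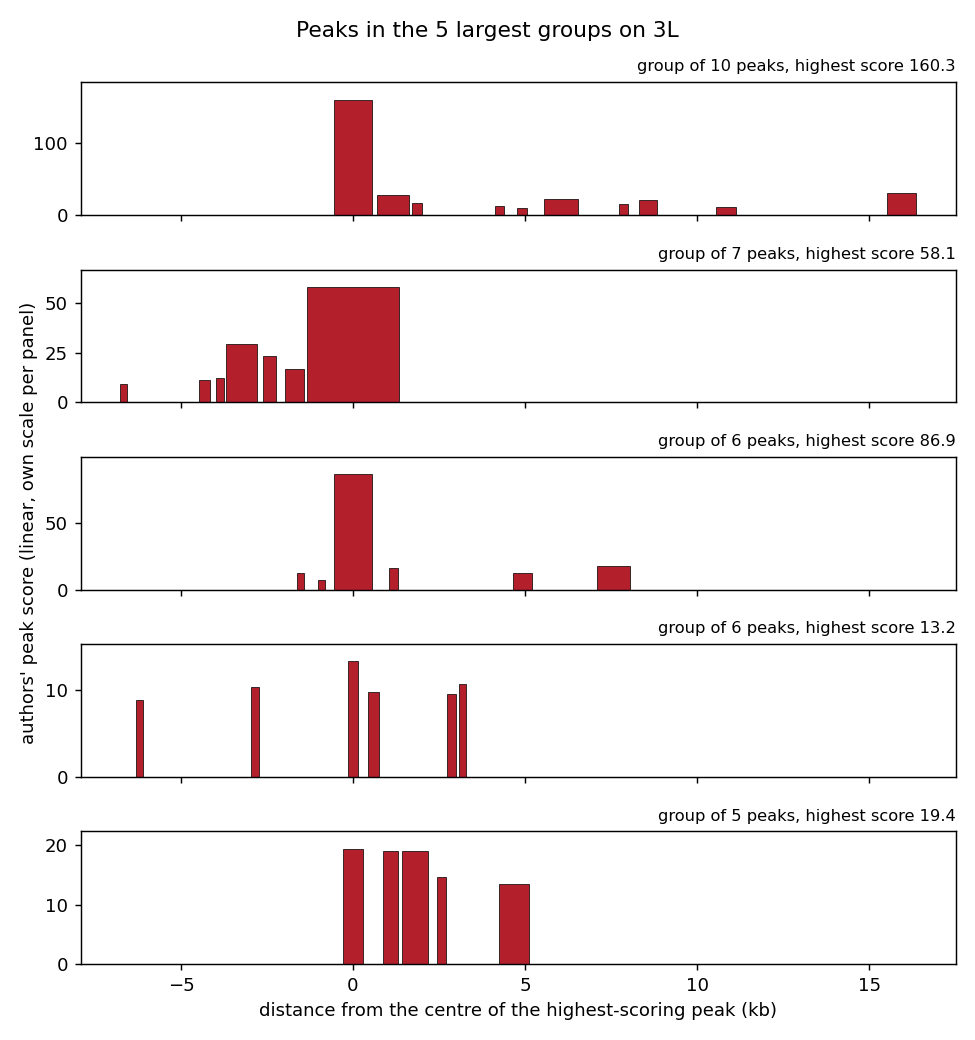
Each panel shows 1 of the 5 groups of 5 or more peaks on 3L: bars stand at the peak's midpoint in kb from that of the highest-scoring member, are as wide as the peak and as high as its score, on a linear axis of its own per panel. The group of 10 has its peak of 160 at one end, the group of 7 ends with the widest bar, and no bar exceeds 20 in the lower 2 panels.

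Some groups held both strong and weak peaks. Of the 58 groups of 2 or more peaks, 16 had a member with a score of 50 or more. In 1 of these the second-highest member also reached 50, and in 11 it scored under 20. Among the 33 pairs, 1 had both peaks in the top 25% of the list, 8 had 1 such peak, and in 14 both peaks scored under the list's median. These counts were not tested. Over all 310 peaks the shares were 20.0% in the top 25% and 11.0% at 50 or more. A score of 20 or more was reached by 30.3%, and 54.5% scored under the list's median. Since most peaks of the arm scored under 20, these counts do not show a trait of groups. Peaks in groups had a median score of 12.9 and single peaks of 13.9. The top 25% of the list made up 17.6% of grouped peaks (29 of 165) and 22.8% of single peaks (33 of 145), and these shares were not tested. A group holds more peaks than a single, and 41.4% of the groups (24 of 58) had at least 1 peak of the top 25%.

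Most of the extent between the first and the last listed peak lay in long stretches without a peak. Gaps of over 100 kb numbered 83 and added up to 17.8 Mb, 77.2% of the extent. The sequence before the first and after the last listed peak of the arm was not counted as a gap. The longest gap between listed peaks, 951 kb from 9706029 to 10656956, lay between peaks that scored 20.8 and 9.44. The peak before it was the third after the one with rank 5. The second, 628 kb from 4613582 to 5241653, followed a peak that scored 88.3, and the third, 544 kb from 22169522 to 22713307, lay near the centromere side of the arm between peaks that scored 15.7 and 14.3. The input signal and the alignability of these stretches were not analysed here. No listed peak (0) lay on 3LHet, the heterochromatic sequence of the arm.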

How the data were processed

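Embryos were collected after 8 h of egg laying and cross-linked for 15 min in 1.8% formaldehyde, per the labels' protocols. Per the submitters' processing notes, the tools included BWA, MACS2 and CASAVA (1.7.0.2 and 1.7.0.3), and the build was BDGP5. The authors deposited 1 list with a score per peak, made with MACS and in FlyBase release 5, per the file headers and the source column. The score's scale, the calling threshold and the use of the replicates are not given in the labels or headers, nor is it stated whether the libraries stem from separate collections of embryos.

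Width was end minus start plus 1, and midpoints stood for positions. Densities used each arm's extent from first to last listed peak. The sequence beyond the last listed peak of an arm was never counted, so full arm lengths were not used. Exact binomial tests had a threshold of 0.05, with Benjamini-Hochberg adjustment over the ratios of a family and exact 95% intervals. The family of 9 ratios by score class was added after the values were seen. No test compares scores or widths, since peaks of 1 list are not replicates. The binomial test was run on simulated independent counts over equal extents, which does not show how it behaves for clustered peaks. The grouping and the adjustment were checked on small made-up examples. Named were the 15 highest peaks, groups of 5 or more, the 3 longest gaps between listed peaks, the lowest, widest, first and last peak. Other single peaks and windows were picked after their values were seen. The arm and these rules were chosen with earlier results of the same list known. The planned motif shares and gene lists were not run, and no sequence is printed, since no genome of release 5 was used here. Alternatives were score limits, merging, joining gaps, neighbour distances and extents. Python 3.11.15, numpy 2.4.6, pandas 2.3.3, scipy 1.17.1 and matplotlib 3.10.9 were used.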

Additional observations from a re-analysis of the deposited data

How the results depend on the processing

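Of 39 alternative values for 9 results, 23 kept direction and side of the threshold or stayed within the interval, including all for the ratios of 3L to 2L (0.691 to 0.997) and to 3R (1.00 to 1.14). The 0.691 to 2L, in the top 25%, lay under the main interval of 0.843 to 1.17. It was not called over 3 ratios (0.490 to 0.969, exact binomial test, adjusted p = 0.080). No paired analysis was possible because no column names a library, so no replicate could be left out either. Not run was the share of peaks with a TCF motif. The ratio of 3L to the other 5 arms was 1.11 from the list's median score upward (exact binomial test, adjusted p = 0.45). With groups counted once it was 1.17 (0.999 to 1.38, exact binomial test, adjusted p = 0.13). Against 2L, 2R and 3R alone it was 1.08 (exact binomial test, unadjusted p = 0.24). None of these was called. In the top 25% the ratio to the 5 arms was 0.955, turned and not called (exact binomial test, adjusted p = 1). The share of 3L peaks with a neighbour within 10 kb was 30.5% at or above the list's median, 9.68% in the top 25% and 37.5% with peaks under 1 kb apart merged; within 5 kb it was 41.6% and within 20 kb 64.5%. The median width was 600 bp at or above the list's median, 869.5 bp in the top 25% and 404 bp with merging. Spearman's rho of score and width was 0.68 at or above the list's median and 0.19 in the top 25%. Groups of 5 or more numbered 12 at a joining gap of 20 kb and 1 with merging. The score limits leave fewer peaks, and the cause was not tested further. Without the fullest 1 Mb window of each large arm the ratio to the 5 arms was 1.19 and still called (exact binomial test, adjusted p = 0.031). This value, the same for the 2 sides of 3L and that against 2L, 2R and 3R alone were chosen after the data were seen. Depth was not examined here and limits every statement on weak or missing peaks.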

Other observations

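The scores on 3L took few distinct values. The 310 peaks had 150 distinct scores to 2 decimals, and 209 of them (67.4%) shared their score with another peak of the arm, the most frequent being 10.65, listed 10 times. A total of 240 peaks (77.4%) had a score that also occurs on another sequence of the list.

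The score of a peak carried little information on that of the next peak along the arm. Over the 309 pairs of successive peaks Spearman's rho was 0.0054. It was 0.12 over the 107 pairs with a gap of up to 10 kb and -0.05 over the 202 pairs further apart. Each peak enters 2 such pairs, and the values are a description of 1 list.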
